A study of Mus musculus with 6 samples.

Results

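Immediate early genes were examined in long RNA from whole mouse brain. The 10 genes Fos, Fosb, Junb, Egr1, Egr2, Nr4a1, Ier2, Dusp1, Arc and Npas4 were taken by symbol from the 55450 annotated genes, and all 10 had a row in the count tables. Of these, 9 were among the 21237 genes with enough counts to be tested, and Egr2 was not. The study compared 3 libraries from animals with a TRMT1L knockout (KO) with 3 from wild-type animals (WT), to ask how brain RNA differs without TRMT1L, a relative of a tRNA methyltransferase. The labels call the samples biological triplicates of brain, without region, age, sex, strain, allele or time of collection. Whether each library is a separate animal is not said outright, so the p-values below measure the spread between these libraries. Counts in genes ranged from 31201119 to 36145961 per library. Trmt1l, the targeted gene, was at 33.0 to 35.2 CPM (read counts scaled to library size with TMM factors) in WT libraries and at 2.68 to 3.0 CPM in KO libraries, on the side the labels give in all 6.

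Immediate early genes are transcribed within minutes of a stimulus, without new protein synthesis, because the factors that switch them on (SRF with its cofactors, CREB and MEF2) already sit in the cell and need only be activated by calcium and kinase signals. Most members are shared by many cell types: Fos, FosB and JunB are subunits of the AP-1 transcription factor, Egr1 and Egr2 are zinc finger transcription factors, Nr4a1 is an orphan nuclear receptor, Ier2 encodes a small nuclear protein and Dusp1 is a phosphatase that switches MAP kinases off again. Arc and Npas4 belong to neurons: Arc is a protein of the synapse that promotes removal of AMPA receptors, and Npas4 is a transcription factor induced by calcium entry. In brain, these RNAs are widely used as a record of recent neuronal firing, and they are short-lived.

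Sequence just upstream of the start site is where several of these activating factors bind, so it is shown for 6 members. RefSeq start regions on GRCm38.p6 were held for 7 of the 10 genes in the table used here. The bases given are those of the 250 upstream of the RefSeq start that lie outside GENCODE M21 exons, read 5′ to 3′ on the strand of the gene; for Npas4, whose window lies within an annotated exon, only a 30-base site is given. For Nr4a1 and Dusp1 the window lies inside the gene span printed further below, because the GENCODE annotation of these genes begins farther upstream than the RefSeq start. Capitals mark the letters TGACG or their complement CGTCA, the core of the cAMP response element (CRE) bound by CREB. The regions are chr12:85473640-85473889 on the plus strand for Fos, chr8:84978749-84978998 on the minus strand for Junb, chr15:101266596-101266845 on the plus strand for Nr4a1, chr7:19310052-19310295 on the minus strand for Fosb, chr17:26508520-26508722 on the minus strand for Dusp1 and chr19:4990126-4990155 on the minus strand for Npas4.
Fos: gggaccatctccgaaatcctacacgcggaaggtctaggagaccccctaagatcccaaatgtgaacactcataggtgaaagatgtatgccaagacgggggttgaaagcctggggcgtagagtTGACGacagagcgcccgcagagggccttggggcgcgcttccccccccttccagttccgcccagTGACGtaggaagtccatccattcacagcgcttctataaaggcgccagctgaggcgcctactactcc
Junb: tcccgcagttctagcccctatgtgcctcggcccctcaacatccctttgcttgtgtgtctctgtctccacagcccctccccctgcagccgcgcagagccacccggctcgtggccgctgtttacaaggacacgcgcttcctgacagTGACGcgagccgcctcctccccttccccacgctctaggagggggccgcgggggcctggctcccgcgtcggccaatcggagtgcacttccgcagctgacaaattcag
Nr4a1: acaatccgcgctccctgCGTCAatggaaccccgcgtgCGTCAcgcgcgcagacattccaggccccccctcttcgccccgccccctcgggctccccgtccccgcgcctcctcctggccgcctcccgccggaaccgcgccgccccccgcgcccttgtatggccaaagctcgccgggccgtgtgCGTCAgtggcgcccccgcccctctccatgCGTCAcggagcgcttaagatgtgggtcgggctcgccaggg
Fosb: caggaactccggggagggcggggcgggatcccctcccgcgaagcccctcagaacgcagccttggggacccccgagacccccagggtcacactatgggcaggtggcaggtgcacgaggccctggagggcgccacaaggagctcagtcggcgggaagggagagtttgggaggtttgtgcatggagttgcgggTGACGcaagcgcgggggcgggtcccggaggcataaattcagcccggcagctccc
Dusp1: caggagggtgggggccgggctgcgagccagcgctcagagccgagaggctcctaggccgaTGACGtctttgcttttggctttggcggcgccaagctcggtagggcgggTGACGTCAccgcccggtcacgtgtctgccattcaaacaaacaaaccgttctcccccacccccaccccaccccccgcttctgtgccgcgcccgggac
Npas4: ttcgaCGTCAcgggaTGACGtcggaagtct

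The 250-base windows of all 6 of these genes held TGACG on either strand, with 2 matches in Fos, 1 in Junb, 4 in Nr4a1, 1 in Fosb, 3 in Dusp1 and 2 in Npas4. Egr2, whose table entries give 5 partly overlapping windows, had 2 matches in each of 3 windows and 0 in the other 2. Of 32817 start regions of that length in the table, 17.75% held at least 1 match and 3.903% held 2 or more. The full palindrome TGACGTCA, which contains the core on both strands and so counts there as 2 overlapping matches, was in the Dusp1 window alone among these 6 and in 1.548% of all windows. The CArG box, the site of SRF, was searched by its usual consensus on both strands; none of the 6 windows held one, 4 of the 5 Egr2 windows did, and 1.469% of all windows did. The letters TATAAA were read on the gene's strand and were in the Fos window and in 7.597% of all windows. These are matches of letters within short windows and not measured binding.

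Levels differed widely between members. Per kilobase of exon, which allows genes to be compared, the WT means were 26.8 ± 1.19 CPM per kb for Egr1, 23.6 ± 1.74 for Arc and 13.8 ± 1.24 for Nr4a1 (SD, n = 3). Next came Fos at 6.51 ± 1.595 CPM per kb, Dusp1 at 6.05 ± 1.003, Junb at 5.52 ± 0.198, Npas4 at 4.80 ± 2.71 and Ier2 at 2.75 ± 0.487 (SD, n = 3), and each neighbour in this run overlapped the next across the WT libraries. Fosb stood at 0.864 ± 0.119 CPM per kb and Egr2 at 0.0338 ± 0.0268 (SD, n = 3). The WT libraries of Egr1, Arc, Nr4a1 and Fosb did not overlap those of the next gene in the order, nor did those of Ier2 overlap those of Fosb. The 3 most abundant RNAs thus included a broadly used factor, a synaptic effector and a nuclear receptor.

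The AP-1 subunits are described first. Fos (ENSMUSG00000021250.13, chromosome 12, 85473890 to 85477273, plus strand, GRCm38) was at 19.3, 14.7 and 11.9 CPM in WT libraries 1 to 3 and at 25.3, 16.0 and 6.78 CPM in KO libraries 1 to 3. KO library 1 lay above the WT range, KO library 2 within it and KO library 3 below it, with a WT mean of 15.3 ± 3.75 CPM and a KO mean of 16.0 ± 9.27 CPM (SD, n = 3). Junb (ENSMUSG00000052837.6, chromosome 8, 84974484 to 84978718, minus strand) was tight in WT, at 12.7, 12.3 and 13.2 CPM, and wide in KO, at 22.5, 11.8 and 9.35 CPM. Its KO library 1 was above and its KO libraries 2 and 3 below every WT library; Junb overlaps the end of Prdx2, a peroxiredoxin gene on the other strand, and its counts rest on the strand of the reads. Fosb (ENSMUSG00000003545.3, chromosome 7, 19302696 to 19310051, minus strand) was at 5.28, 6.19 and 4.71 CPM in WT and at 9.09, 13.99 and 5.45 CPM in KO. Unlike Fos and Junb it was highest in KO library 2, and KO library 3 lay inside the WT range. Its WT libraries averaged 5.39 ± 0.746 CPM and its KO libraries 9.51 ± 4.29 CPM (SD, n = 3).

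Among the EGR factors, Egr1 (ENSMUSG00000038418.7, chromosome 18, 34859823 to 34864984, plus strand) was at 126, 120.3 and 115 CPM in WT and at 177, 156 and 96.1 CPM in KO. KO libraries 1 and 2 were above all WT libraries and KO library 3 below all of them. Egr2 (ENSMUSG00000037868.15, chromosome 10, 67535475 to 67542188, plus strand) had 8, 2 and 2 counts in WT libraries and 9, 12 and 4 in KO libraries, too few to be tested. The sums of 12 and 25 counts came from libraries that overlapped between the genotypes. In the edgeR fit that kept every gene with at least 1 count, its log2 fold change was 1.001 (adjusted p = 0.793). The nuclear receptor Nr4a1 (ENSMUSG00000023034.7, chromosome 15, 101254269 to 101274795, plus strand) was at 50.1, 51.6 and 43.5 CPM in WT and at 64.5, 51.4 and 22.7 CPM in KO. Its KO library 3 held 0.469 of the WT mean, and its KO library 1 held 1.33 times that mean.

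Ier2 and Dusp1 followed the order seen for Fos within KO. Ier2 (ENSMUSG00000053560.4, chromosome 8, 84661331 to 84662852, minus strand), which lies 311631 bases from Junb, was at 5.03, 3.64 and 3.89 CPM in WT and at 6.07, 4.34 and 3.38 CPM in KO. Dusp1 (ENSMUSG00000024190.7, chromosome 17, 26505590 to 26562128, minus strand) was at 23.4, 19.9 and 16.8 CPM in WT and at 28.2, 20.9 and 13.6 CPM in KO. For both genes KO library 1 was the highest and KO library 3 the lowest of the 6 libraries.

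The neuron-specific members did not share one pattern. Arc (ENSMUSG00000022602.14, chromosome 15, 74669083 to 74672570, minus strand) was at 77.7, 71.8 and 67.0 CPM in WT and at 96.9, 104.7 and 36.2 CPM in KO, so that KO libraries 1 and 2 lay above and KO library 3 below all WT libraries. Npas4 (ENSMUSG00000045903.9, chromosome 19, 4984355 to 4990316, minus strand) was at 23.2, 29.0 and 7.32 CPM in WT and at 23.3, 13.2 and 10.4 CPM in KO. Its lowest library was WT library 3, its highest WT library 2, and all KO libraries were inside the WT range. Npas4 was the sole tested member whose libraries varied more in WT than in KO.

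**Figure D1:**
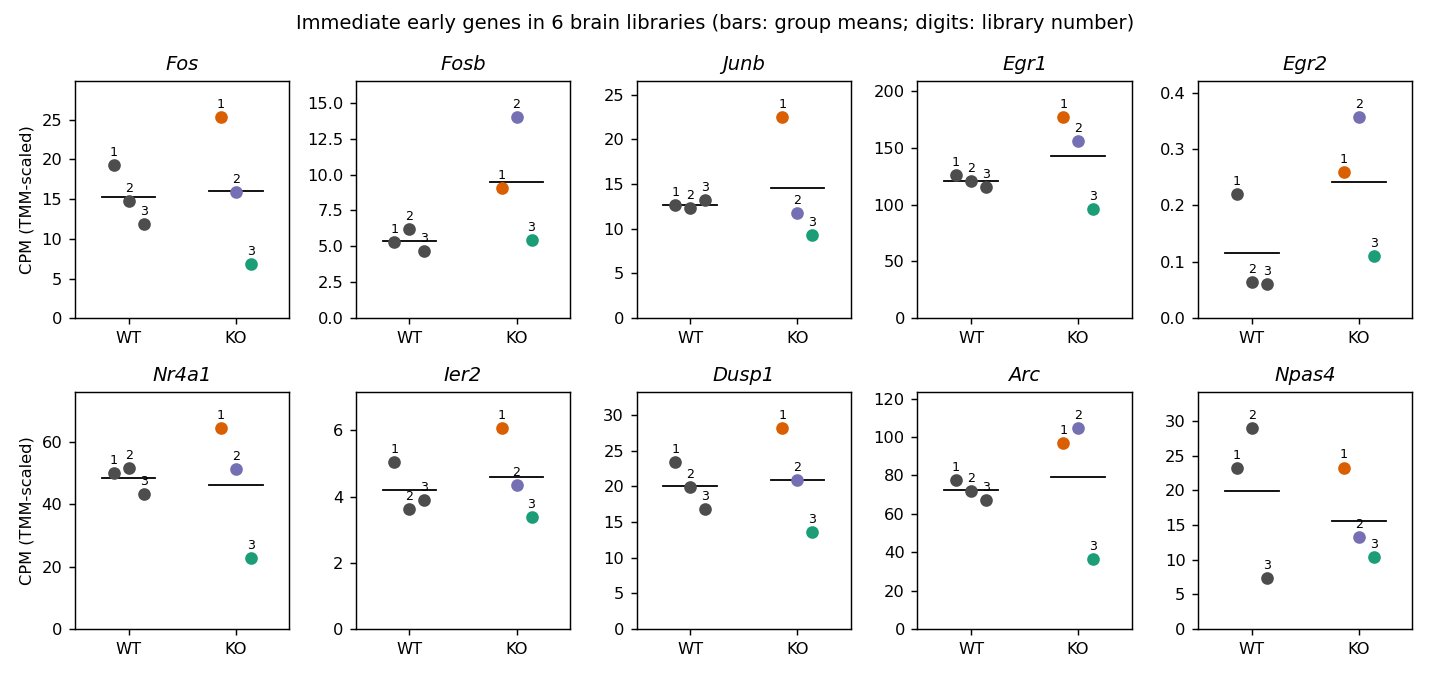
Level of each of the 10 genes (vertical axes, TMM-scaled CPM from 0, a scale of its own for each gene) in 3 WT and 3 KO libraries; each point is 1 library with its number, and bars are group means. KO library 1 is the highest of 6 for Fos, Junb, Egr1, Nr4a1, Ier2 and Dusp1, and KO library 3 the lowest for these and for Arc.

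Genotype was then tested for each gene. After Benjamini-Hochberg adjustment over all genes in edgeR (threshold 0.05), 0 of the 9 tested members passed, and 0.00942% of all genes tested did. At an unadjusted p-value under 0.05 there was 1 member, Fosb, against 7.92% of all genes tested. In limma-voom 0 of 9 passed after adjustment (0.00942% of all genes) and 1 without (7.68%). In DESeq2 0 of the 2 members that received an adjusted p-value passed (0.545% of all genes with one), and 1 of 9 without adjustment (5.46%). With every gene of at least 1 count kept in the edgeR fit, 3 of the 10 passed at almost unmoved fold changes. They were Fosb (adjusted p = 2.12e-08), Egr1 (adjusted p = 0.000655) and Npas4 (adjusted p = 0.0148), against 0.8% of all genes in that fit. Without adjustment 5 of the 10 and 6.73% of all genes passed in it. Dropping the filter took edgeR's prior degrees of freedom from 7.53 to infinity. Each gene's own spread was thereby replaced by a trend shared across genes. In the main fit, edgeR put the coefficient of variation between libraries at 21.6%, 13.9% and 33.2% for these 3. The trend stood at 9.84%, 5.60% and 7.28%. The 3 passes were therefore not read as differences between genotypes. In no tested member were the KO and WT libraries fully separated, as they were for 14.4% of the genes tested, with KO higher for 7.46% and lower for 6.97%. The log2 fold change of KO over WT was 0.82 for Fosb (SE 0.262, edgeR adjusted p = 0.576), which was higher in 2 of 3 KO libraries than in any WT library. The next in size were Npas4 at -0.34 (SE 0.389, edgeR adjusted p = 0.850) and Egr1 at 0.25 (SE 0.161, edgeR adjusted p = 0.731). For Junb, Arc, Ier2, Fos, Dusp1 and Nr4a1 the log2 fold changes lay between -0.068 and 0.19, each smaller than its SE. The median over the 9 genes was 0.13, beside 0.00013 over all genes tested, and 7 of the 9 were above 0, as were 50.1% of all genes. In limma-voom the median was -0.0014 and 4 of the 9 were above 0.

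These differences turned on single KO libraries. Without KO library 3, Egr1 passed the threshold at a log2 fold change of 0.47 (edgeR adjusted p = 0.0414; 0.0232% of all genes passed in that fit), and Arc reached 0.48 (adjusted p = 0.0525) and Fosb 1.10 (adjusted p = 0.0948). Without adjustment 6 of the 9 passed in that fit (Egr1, Arc, Fosb, Nr4a1, Junb and Fos), against 8.01% of all genes tested in it, and Nr4a1 turned from -0.068 to 0.26. Without KO library 1 the opposite was seen: Fos stood at -0.44, Junb at -0.27, Dusp1 at -0.22 and Ier2 at -0.13, each with its sign turned, and 2 of the 9 log2 fold changes were above 0. In that fit 0 of the 9 passed after adjustment in edgeR and 2 without (all genes: 0.0139% and 8.58%). Fosb stayed above 0 in all 6 fits that left out 1 library, from 0.43 without KO library 2 to 1.10 without KO library 3. Npas4 depended on the WT libraries as well, at -0.74 without WT library 3 and 0.026 without WT library 2.

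**Figure D2:**
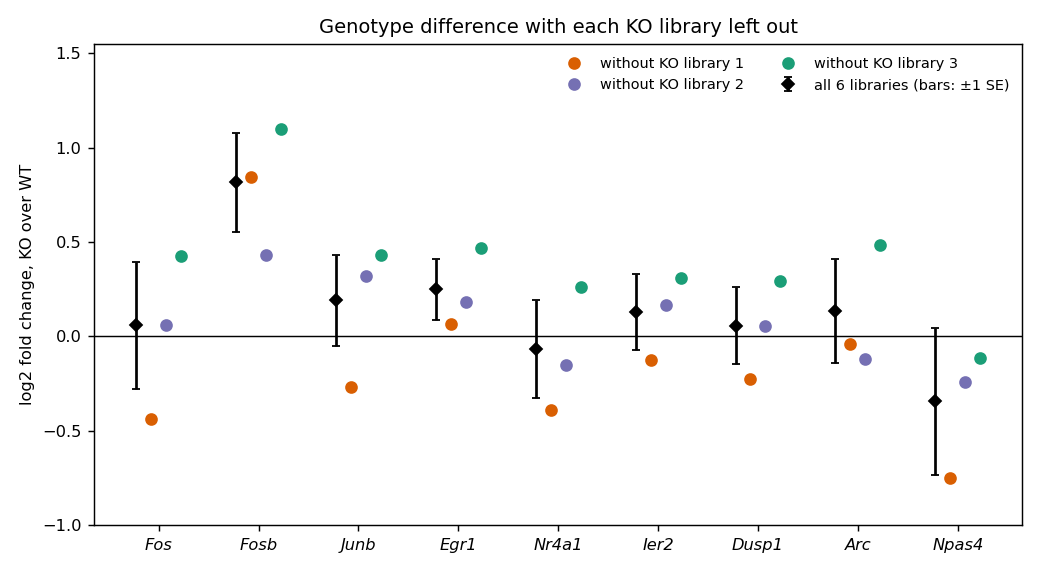
Log2 fold change of KO over WT (vertical axis) for the 9 tested genes, with all 6 libraries (black diamonds, bars of 1 SE) and with 1 KO library left out (coloured points). Without KO library 3 all values but that of Npas4 are above 0, and without KO library 1 only those of Egr1 and Fosb are.

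The spread within KO was then described. Measured as the SD of log2 CPM over 3 libraries, it was 0.96 for Fos, 0.85 for Arc, 0.79 for Nr4a1, 0.68 for Fosb, 0.65 for Junb, 0.60 for Npas4, 0.53 for Dusp1, 0.47 for Egr1 and 0.42 for Ier2. The median of these 9 was 0.65, beside 0.11 over all genes tested and 0.082 over the 11408 tested genes within the members' range of mean CPM. Of those 11408 genes, at least 98.8% had a smaller KO spread than each member. By the same measure in WT, the share below was also high for Npas4 (99.96%), Fos (99.2%), Ier2 (97.3%), Dusp1 (97.2%) and Fosb (94.3%), and lower at 31.5% for Junb, 42.9% for Egr1, 72.2% for Arc and 82.9% for Nr4a1. Within WT the same measure had a median of 0.20 over the 9 genes and 0.099 over all genes tested, with Junb at 0.051, Egr1 at 0.064, Arc at 0.11 and Nr4a1 at 0.13 on one side and Npas4 at 1.06 on the other. The spread was larger in KO than in WT for 8 of the 9 genes and for 55.6% of all genes. With 1 KO library left out, the median SD over the 9 genes was 0.34 without KO library 3, 0.50 without KO library 1 and 0.82 without KO library 2. These are SDs over 2 libraries. The like medians in WT were 0.17, 0.15 and 0.16 without WT library 1, 2 and 3. With 3 libraries a group, a spread is itself imprecise, and the difference in spread between the genotypes was not tested.

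**Figure D3:**
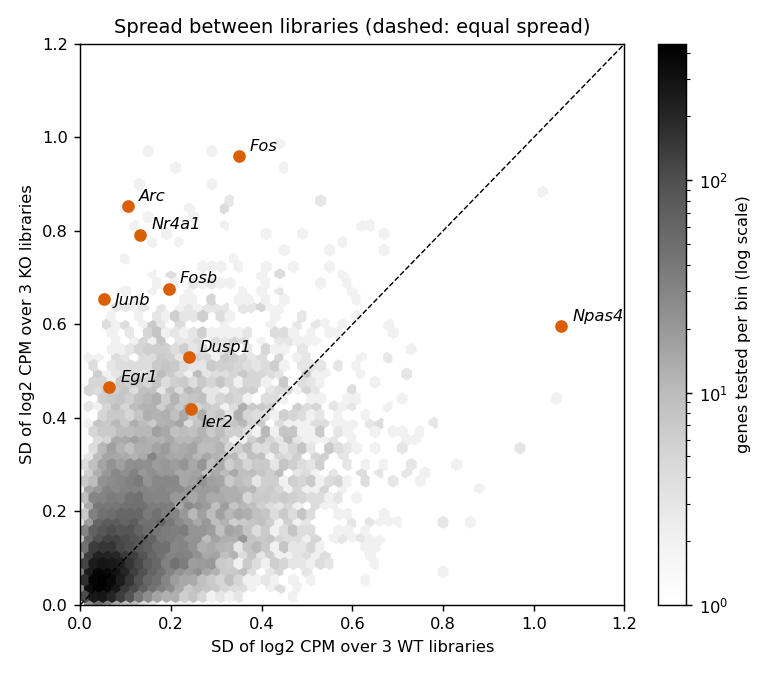
SD of log2 CPM over 3 WT libraries (horizontal axis) and over 3 KO libraries (vertical axis) for all genes tested (grey bins, darker for more genes) and the 9 tested immediate early genes (orange); the axes end at 1.2, beyond which 46 genes lie. All 9 are above 0.4 in KO, while in WT all but Npas4 are below 0.4.

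In fold terms, the highest KO library held 3.74 times the lowest for Fos, 2.89 times for Arc, 2.84 times for Nr4a1, 2.57 times for Fosb, 2.40 times for Junb, 2.24 times for Npas4, 2.08 times for Dusp1, 1.84 times for Egr1 and 1.80 times for Ier2. All 9 exceeded a ratio of 1.5, as did 17.3% of all genes tested. In WT the ratio was 1.07 for Junb, 1.09 for Egr1, 1.16 for Arc and 1.19 for Nr4a1, and it exceeded 1.5 only for Fos (1.63) and Npas4 (3.96), against 14.3% of all genes. KO library 3 was the lowest of the KO libraries for all 9 genes, against 32.7% of all genes tested, and the lowest of all 6 libraries for 7 of the 9, against 17.7%. WT library 3 was the lowest of the WT libraries for 7 of the 9, against 35.7% of all genes. KO library 1 was the highest of 6 for 6 of the 9, against 12.9% of all genes.

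Broadly induced members were set against the neuron-specific ones within each library, as the mean log2 deviation from the WT average. The 7 tested broad genes stood at 0.14, 0.0061 and -0.14 in WT libraries 1 to 3 and at 0.62, 0.28 and -0.54 in KO libraries 1 to 3. Arc stood at 0.11, -0.0051 and -0.10 in WT and at 0.43, 0.54 and -0.99 in KO. Arc therefore had the same sign as the broad genes in every KO library, with a larger departure in KO library 3 and its highest point in KO library 2. Npas4 stood at 0.44, 0.77 and -1.21 in WT and at 0.45, -0.36 and -0.71 in KO, and in KO library 2 it was below its WT average while the broad genes and Arc were above theirs. The broad mean minus that of Arc and Npas4 was 0.18, 0.19 and 0.31 in KO and -0.14, -0.37 and 0.51 in WT, so the groups overlapped (KO minus WT 0.23, with an SD of 0.46 in WT and 0.069 in KO, n = 3).

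**Figure D4:**
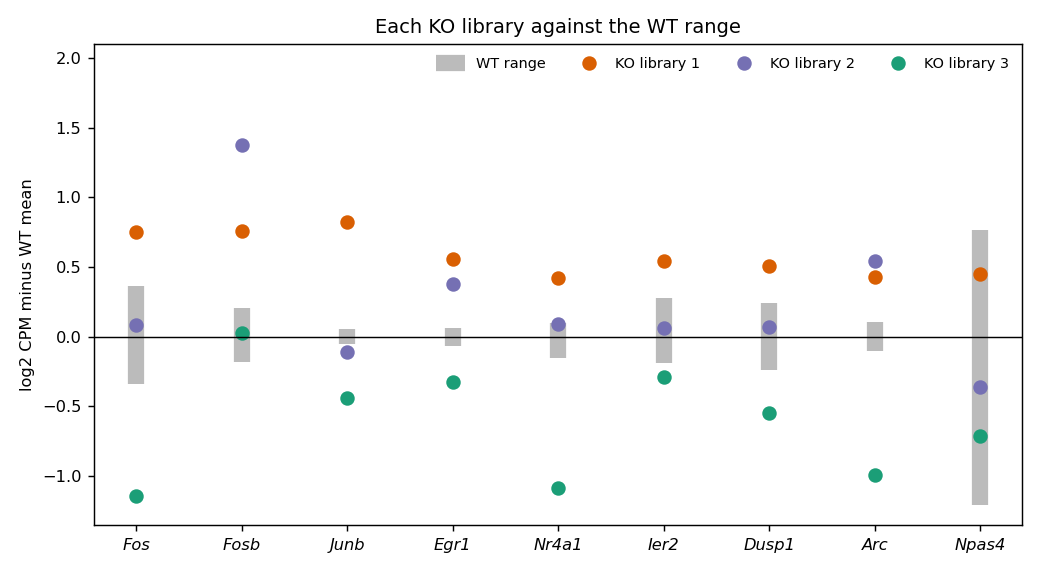
Log2 CPM of each KO library minus the WT mean (vertical axis) for the 9 tested genes; grey bars span the 3 WT libraries. KO library 1 lies above the WT range for 8 genes, KO library 3 lies below it for 7, and KO library 2 is above it for Fosb, Egr1 and Arc.

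KO libraries 1 and 2 differed in which immediate early genes were high. KO library 1 held 1.91 times the level of KO library 2 for Junb, 1.76 times for Npas4, 1.59 times for Fos, 1.40 times for Ier2, 1.35 times for Dusp1 and 1.26 times for Nr4a1. For Egr1 the ratio was 1.13, for Arc 0.925 and for Fosb 0.650. In all, 7 of the 9 were higher in KO library 1, as were 50.4% of all genes tested. This ratio compares 2 libraries and has no replicates behind it.

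The wider set of rapidly induced genes was then set beside the 9. In a list of 34 other fast immediate early genes, 32 were tested (Fosl1 and Jund, both at 0 to 3 counts in every library, were not; Jund is a gene widely expressed in brain, and its counts here are not read as absence of its RNA), and 12 of the 32 were higher in KO library 1 than in KO library 2. KO library 2 was the highest of 6 libraries for 19 of the 32, against 21.8% of all genes, and KO library 1 for 8, against 12.9%. As with the 9 genes, KO library 3 was often the lowest of the KO libraries, for 23 of the 32 (32.7% of all genes), the spread was larger in KO for 27 (55.6%) and the KO libraries differed at least 1.5 times for 17 (17.3%). By genotype, 0 of the 32 passed after adjustment in edgeR, 11 were higher in KO and 0 lower at an unadjusted p-value under 0.05 (all genes tested: 4.54% higher, 3.38% lower), and the median log2 fold change was 0.20. The groups were separated for 7 of the 32, all with KO higher (7.46% of all genes). The count of 11 was 17 without KO library 3, 6 without KO library 2 and 6 without WT library 2, with none lower in KO in these fits; without KO library 1 there were 9 higher and 2 lower, and without WT library 3 there were 12 higher and 1 lower. The median of 0.20 was 0.11 without KO library 2 and 0.31 without KO library 3. The 4 with the smallest p-values were Egr4 at a log2 fold change of 0.55 (SE 0.143), Maff, a small bZIP factor, at 0.99 (SE 0.285), Egr3 at 0.37 (SE 0.119) and Apold1, a gene of activated endothelium, at 0.46 (SE 0.149), all with an edgeR adjusted p of 0.576.

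Egr3 and Egr4 differed from Egr1 in their lowest library. Egr3 was at 52.1, 54.0 and 56.7 CPM in WT and at 62.0, 88.3 and 60.1 CPM in KO, and Egr4 at 3.24, 3.54 and 3.37 CPM in WT and at 5.84, 4.75 and 4.23 CPM in KO. KO library 3 was above every WT library for both of these genes and below every WT library for Egr1.

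Effectors induced by neuronal activity formed a list of 24, all tested. At an unadjusted p-value under 0.05, 3 were higher and 2 lower in KO (all genes tested: 4.54% and 3.38%), 0 passed after adjustment in edgeR, and the median log2 fold change was 0.11. Vgf, which encodes a secreted neuropeptide precursor, was at 58.0, 51.0 and 68.6 CPM in WT and at 79.3, 89.5 and 73.7 CPM in KO (log2 fold change 0.45, SE 0.0982, edgeR adjusted p = 0.550). The synaptic pentraxin Nptx2 had a log2 fold change of 0.45 (SE 0.117), tissue plasminogen activator Plat one of 0.28 (SE 0.0746) and Rgs4, a regulator of G protein signalling, one of -0.17 (SE 0.0468), each with an edgeR adjusted p of 0.576. The KO and WT libraries of these 4 genes did not overlap, as for 6 of the 24 in all and for 14.4% of all genes tested. The number of effectors at an unadjusted p-value under 0.05 was 10 without KO library 3 and 8 without WT library 3, against 5 with all libraries, and their median log2 fold change was 0.023 without KO library 2. KO library 2 was the highest of 6 for 13 of the 24 effectors (21.8% of all genes) and KO library 1 for 0 (12.9%). Their spread within KO had a median SD of 0.14 on the log2 scale, and that of the 32 other fast genes 0.33.

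Upstream regulators varied less. In a list of 29 genes for the kinases, phosphatase subunit, transcription factors and coactivators upstream of these genes, the median SD of log2 CPM within KO was 0.064, and none had a KO library 1.5 times another. Without adjustment (p-value under 0.05), 2 of the 29 were higher and 2 lower in KO, shares of 6.90% each way beside 4.54% and 3.38% of all genes tested, and 0 passed after adjustment in edgeR. The 4 were Mef2d at a log2 fold change of 0.12 (SE 0.0501), the SRF cofactor gene Mrtfa at 0.16 (SE 0.0696), and the kinase genes Rps6ka5 at -0.12 (SE 0.0491) and Rps6ka3 at -0.12 (SE 0.0525), with edgeR adjusted p-values of 0.614, 0.622, 0.614 and 0.622. The split moved with the libraries: 0 were higher and 4 lower without WT library 1, 3 and 0 without WT library 2, 2 and 0 without WT library 3, and 0 and 2 without KO library 2.

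Genes that respond to glucocorticoids stood highest in KO library 2. In a list of 12, all were highest of 6 libraries in KO library 2 (21.8% of all genes were), 7 were higher in KO at an unadjusted p-value under 0.05 (4.54% of all genes), 0 passed after adjustment in edgeR, and the median log2 fold change was 0.59. Without KO library 2 the count was 4 and the median 0.12, without KO library 3 they were 12 and 0.80, and without WT library 1 or 3 the count was 4. Their median SD within KO was 0.58 on the log2 scale, and the SD was larger in KO than in WT for all 12 (55.6% of all genes). As with the immediate early genes, KO library 3 was often the lowest of the KO libraries, for 10 of the 12 (32.7% of all genes). It was the lowest of all 6 libraries for 6 of the 12 (17.7%). The KO libraries differed at least 1.5 times for 10 of the 12 (17.3%). Plin4, a lipid droplet protein gene, was at 3.11, 3.09 and 2.40 CPM in WT and at 5.12, 36.4 and 3.54 CPM in KO (log2 fold change 2.38, SE 0.721, edgeR adjusted p = 0.576). The cell cycle inhibitor gene Cdkn1a was at 7.97, 6.67 and 7.99 CPM in WT and at 10.01, 20.7 and 14.3 CPM in KO (0.99, SE 0.207, edgeR adjusted p = 0.550). The metallothionein genes Mt1 and Mt2 had log2 fold changes of 0.49 (SE 0.0744) and 0.68 (SE 0.149), with edgeR adjusted p-values of 0.210 and 0.550. Of the 10 immediate early genes, Fosb, Arc and the sparsely counted Egr2 were also highest in KO library 2. Whether the level of these glucocorticoid-responsive genes bears on the immediate early genes was not tested.

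**Figure D5:**
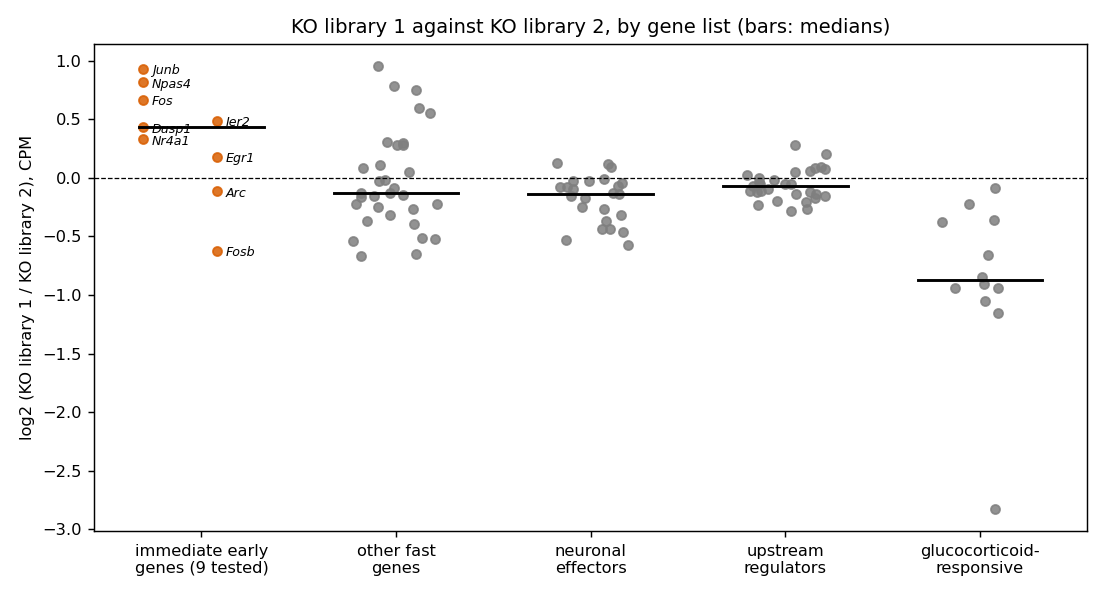
Log2 ratio of CPM in KO library 1 over KO library 2 (vertical axis) for the tested genes of 5 lists; each point is a gene and bars are medians. The immediate early genes have a median of 0.43 with Fosb lowest, and all 12 glucocorticoid-responsive genes are below 0, Plin4 farthest.

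The genes whose levels most resembled the 9 across libraries were sought among 999 other genes with a mean of at least 1 CPM and an SD over the 6 libraries of at least 0.3 on the log2 scale. Likeness was Pearson's r, over 6 libraries, between a gene's log2 CPM and the mean of the 9 centred profiles, which was 0.13, 0.055 and -0.29 in WT and 0.55, 0.20 and -0.65 in KO. It was highest for 1700016P03Rik (r = 0.957), followed by Gm18150 (0.942), Gm16518 (0.935), Gm49519 (0.930), Tob2 (0.916), Per1 (0.911), Gm48646 (0.909) and Dbp (0.903). Per1 and Dbp are genes of the circadian clock and its output, and Per1 is itself rapidly induced. 1700016P03Rik was at 5.03, 3.03 and 1.94 CPM in WT and at 5.67, 3.74 and 1.36 CPM in KO. Per1 was at 104.7, 102 and 71.7 CPM in WT and at 127, 135 and 70.4 CPM in KO, and Dbp at 78.4, 72.3 and 50.02 CPM in WT and at 81.2, 68.1 and 50.3 CPM in KO. For both clock genes, library 3 of each genotype was the lowest of its group. The 8 were picked as the closest of 999, so their r values describe that choice. The profile they were matched to was itself lowest in library 3 of each genotype. The low library 3 of Per1 and Dbp therefore follows from the choice and adds nothing to it.

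The makeup of the tissue was read from 11 lists of cell type markers, as summed CPM. The label of brain was met by pan-neuronal markers at 6416 to 6766 CPM in WT and 6270.2 to 6617 CPM in KO over 10 genes, with no marker of any list at 0. Excitatory forebrain markers, from the neurons in which Arc and Egr1 are best known, summed to 2453 to 2914 CPM in WT and 2668 to 2763 CPM in KO, with 2726 CPM in KO library 3. The most uneven lists were blood (119 to 160.2 CPM in WT, and 256, 103.5 and 192 CPM in KO libraries 1 to 3) and choroid plexus (338 to 394 CPM in WT and 399.6 to 475 CPM in KO). Choroid plexus was the sole list whose sums did not overlap between genotypes. Oligodendrocyte markers were lowest in KO library 3, at 3781 CPM against 4142 to 4804 CPM in the others, and striatal, cerebellar, inhibitory, astrocyte, microglial and vascular sums overlapped between the groups. The pan-neuronal and astrocyte sums were also lowest of 6 in KO library 3, at 6270.2 and 5247 CPM. Sums follow their most abundant genes, and Slc1a2 alone gave 3196 CPM of that astrocyte sum. In the oligodendrocyte, pan-neuronal and astrocyte lists alike, 4 of the 10 markers were lowest of 6 in KO library 3 (17.7% of all genes tested). Others were highest of 6 there, among them the pan-neuronal Rbfox3 and Syn1 and the astrocyte genes Aldh1l1 and Slc1a3. Among single markers, the astrocyte gene Gfap was at 115, 131 and 133 CPM in WT and at 140.2, 128 and 248 CPM in KO, highest in KO library 3 (log2 fold change 0.45, edgeR adjusted p = 0.622), while 7 of the 10 astrocyte markers had their lowest KO level in that library. Of the 10, 3 were higher and 1 lower in KO at an unadjusted edgeR p-value under 0.05 (all genes tested: 4.54% and 3.38%). KO and WT libraries were separated for Aldh1l1 and Fgfr3 with KO higher and for Aqp4 with KO lower (all genes tested: 7.46% and 6.97%). Also separated were 5 of the 10 choroid plexus markers, all with KO higher, and 4 of the 10 pan-neuronal markers, 2 each way. So were 2 of the 10 oligodendrocyte and 2 of the 10 microglial markers, all with KO lower. The single markers named in this paragraph were picked after their values were seen. The blood markers, with a median SD within KO of 0.66, varied about as widely as the immediate early genes. KO library 1 was the highest of 6 for 5 of the 8 blood markers, as for 6 of the 9 immediate early genes, and was above KO library 2 for all 8, while their sum was lowest in KO library 2 and not in KO library 3. The part of these differences in the immediate early gene levels was not tested, and in bulk tissue fewer cells of a type and less RNA per cell cannot be told apart.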

How the data were processed

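Long RNA from whole brain was measured in 3 WT and 3 KO libraries. Per the labels' protocols, total RNA over 200 bp was kept and libraries followed an Illumina TruSeq total RNA protocol. Cutadapt 1.9.1 and STAR 2.7.0f are named in the submitters' processing notes; genome build and annotation are not given in the sources used here. The deposited tables hold raw read counts per gene; their 55450 identifiers are those of GENCODE M21 (GRCm38), which gave symbols, positions and exon lengths. Column 4 was used, with 94.6% to 94.8% of the stranded counts. Reads outside genes (48.6% to 52.2% in this column) are summary rows that were left out, as were reads in several places or genes.

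Genes were filtered with filterByExpr and scaled with TMM, and genotype was tested in R 4.3.3 with edgeR 4.0.16 (quasi-likelihood, Benjamini-Hochberg over 21237 genes, threshold 0.05). The SE is the log2 fold change divided by the square root of F. Log2 CPM used a prior count of 2. The test was checked on simulated data. Members and gene lists were chosen with earlier results of these data known. All 10 members were named, and the 4 smallest p-values of each context list; Per1, Camk2a and Penk stand in 2 lists each, and other genes were named after their values were seen. Alternatives were the unstranded column, other scalings and filters, DESeq2 1.42.0, limma-voom (limma 3.58.1), a replicate block, a prior count of 0.5 and leaving out each library. No pair of libraries of a group agreed within sampling noise (chi-square per degree of freedom 4.08 to 8.69).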

Additional observations from a re-analysis of the deposited data

How the results depend on the processing

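The alternatives were set before the data files were opened in this work, except those that leave out libraries for the spread and the gene lists, which were chosen after seeing the data. The number of genes past the threshold was 2 with all libraries, and again with the unstranded counts, both other scalings, the stricter filter and limma-voom. It was 298 without a filter, 26 with DESeq2 and 4 with the replicate block, and from 2 to 5 in the 6 fits that left out 1 library, with 5 without KO library 3. Prior degrees of freedom went from 7.53 to infinite when the filter was dropped.

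Signs turned in limma-voom for Fos (-0.12), Dusp1 (-0.0014) and Arc (-0.016), and with the replicate block for Fos (-0.052); the cause was not tested. Over all genes tested, the deviations of same-numbered libraries had correlations of 0.040, -0.031 and -0.058, so the numbers were not taken to pair the samples; among the 9 members, library 3 was the lowest of its group for 7 in WT and 9 in KO. With the block the members' median was 0.021, and the replicate block brought no member past the threshold. With 1 library left out, the log2 fold change ranged from -0.44 to 0.43 for Fos, -0.27 to 0.43 for Junb, -0.39 to 0.26 for Nr4a1, -0.13 to 0.31 for Ier2, -0.22 to 0.29 for Dusp1, -0.12 to 0.48 for Arc and -0.75 to 0.026 for Npas4; Egr1 (0.066 to 0.47) and Fosb (0.43 to 1.10) kept their sign. Over the same fits, counts at an unadjusted p-value under 0.05 ran from 6 to 17 for the other fast genes, 5 to 10 for the effectors, 2 to 4 for the upstream regulators and 4 to 12 for the glucocorticoid-responsive genes, and 0 of any list passed after adjustment in edgeR. The median SD within KO lay between 0.34 and 0.82 with 1 KO library left out and between 0.65 and 0.66 under the other settings, where the broad minus neuron-specific difference stayed at 0.23. The other scalings moved the median of all genes by -0.010 at most on the log2 scale.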

Other observations

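Reads antisense to the 10 genes were also counted. Junb had 218, 193 and 206 such counts in WT libraries and 257, 204 and 233 in KO libraries, where Prdx2 overlaps its end on the other strand (edgeR adjusted p = 0.962). Dusp1 had 41, 26 and 39 in WT libraries and 54, 31 and 41 in KO libraries (edgeR adjusted p = 0.972), Egr1 had 5 to 13 and Arc 5 to 9. Fos, Fosb, Nr4a1 and Ier2 had at most 2 in any library, Npas4 at most 3, and Egr2 0 in all 6.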
